A study of Mus musculus with 6 samples.

Results

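The 9 genes described here encode proteins of the BCL2 family that decide whether a mitochondrion releases its contents during apoptosis: the pro-survival genes Bcl2, Bcl2l1 and Mcl1, the pore-forming effectors Bax and Bak1, and the BH3-only genes Bcl2l11, Bbc3, Pmaip1 and Bid. They were listed by name and role, with earlier results of these data already known. All 9 were found among the 56884 genes counted in each library, and all 9 were among the 18177 genes with enough counts to be tested. RNA was sequenced from 3 control (WT) and 3 Dnmt3a knockout (KO) ectopic endometrial lesions of mice, each lesion as 1 library. Endometrial tissue came from donor mice 8 weeks old that had received estradiol and were either Dnmt3a f/f (WT) or Dnmt3a f/f:PR-Cre/+ (KO), so both groups carry the floxed alleles and only the KO donors carry Cre, which is expressed in cells with progesterone receptor. Recipients of both groups were wild-type C57BL/6J mice 8 weeks old with estrogen pellets. Host vessels and immune cells inside a lesion therefore keep Dnmt3a, and a lesion piece holds donor and host cells together. The study's methods describe a fragment sutured to the mesenteric membrane and collected on day 21, whereas the sample labels describe injection of fragments into the peritoneum and a time of 4 weeks.

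In the mitochondrial pathway of apoptosis, BH3-only proteins sense stress and either engage the effectors or occupy the pro-survival proteins, which otherwise hold BAX and BAK in check. Once BAX or BAK opens the outer mitochondrial membrane, cytochrome c binds APAF1 and caspase-9 is activated, which in turn cleaves the executioner caspases. Ectopic endometrium has to survive outside the uterus, and resistance to apoptosis is a known feature of endometriotic tissue. Pmaip1 (NOXA) and Bbc3 (PUMA) are classical p53 targets, and the NOXA protein binds MCL1.

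The libraries held 45370342 to 57239184 counts. Dnmt3a itself lay at 43.9 to 52.7 CPM in WT and 30.3 to 36.2 CPM in KO lesions, where CPM is the count of a gene scaled to the effective size of its library. The libraries differed in the tissue they held, and WT replicate 2 stood apart in several marker lists. The summed level of 9 neutrophil genes was 505, 10139 and 235 CPM in WT replicates 1, 2 and 3 against 44.4 to 228 CPM in KO lesions, with S100a8 at 3406 CPM and S100a9 at 5263 CPM in WT replicate 2. None of these 9 genes was at 0 in any library. The 8 macrophage genes summed to 1171 to 2732 CPM in WT and 542 to 1396 CPM in KO lesions. The 7 T cell genes summed to 33.2 to 93.4 CPM in WT and 7.51 to 26.3 CPM in KO lesions. The 6 B and plasma cell genes summed to 93.5, 589 and 170 CPM in WT replicates 1, 2 and 3. In KO lesions they summed to 61.2 to 89.3 CPM. Skeletal muscle genes summed to 26552 and 27452 CPM in WT replicates 1 and 3 but to 3.47 CPM in WT replicate 2 and at most 14.1 CPM in KO lesions, and adipocyte genes were highest in KO replicate 3, at 3280 CPM. Of the genes that define the labelled tissue, the epithelial list summed to 1449 to 2862 CPM and the stromal list to 2239 to 3833 CPM over all 6 lesions, while the gland gene Foxa2, singled out after its values were seen, was at 0 to 2.62 CPM. In such whole pieces, fewer cells of a type and less RNA per cell cannot be told apart.

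DNMT3A adds methyl groups to cytosines, mostly where a C is followed by a G, so the letters upstream of 3 members that differ in their values are shown: Mcl1 and Bid, which lay lower in every KO than in every WT lesion, and Bcl2, whose groups overlapped. Each run is the 250 bases before the transcription start of RefSeq on GRCm38.p6, read 5′ to 3′ on the strand of the gene, with every CG in capitals. CG reads the same on both strands, and its copies cannot overlap. Methylation was not measured in these libraries.
Mcl1, chr3:95658471-95658720, plus strand: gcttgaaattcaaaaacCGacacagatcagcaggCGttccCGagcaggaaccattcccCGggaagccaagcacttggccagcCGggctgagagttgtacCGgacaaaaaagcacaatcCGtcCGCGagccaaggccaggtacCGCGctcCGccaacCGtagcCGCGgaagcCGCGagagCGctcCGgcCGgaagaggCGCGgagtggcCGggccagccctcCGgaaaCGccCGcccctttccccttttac
Bid, chr6:120916825-120917074, minus strand: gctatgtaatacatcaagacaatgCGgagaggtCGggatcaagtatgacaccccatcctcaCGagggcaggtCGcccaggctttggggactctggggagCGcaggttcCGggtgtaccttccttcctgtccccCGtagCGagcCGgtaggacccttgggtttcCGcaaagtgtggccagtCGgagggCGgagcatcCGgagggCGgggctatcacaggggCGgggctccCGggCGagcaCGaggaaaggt
Bcl2, chr1:106714291-106714540, minus strand: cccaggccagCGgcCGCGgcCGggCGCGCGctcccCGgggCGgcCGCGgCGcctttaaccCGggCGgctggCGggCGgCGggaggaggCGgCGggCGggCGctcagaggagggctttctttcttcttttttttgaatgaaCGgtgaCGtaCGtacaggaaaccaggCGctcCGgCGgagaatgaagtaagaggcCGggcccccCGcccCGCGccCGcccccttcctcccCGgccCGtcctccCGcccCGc

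The Mcl1 window holds 26 CG, the Bid window 18 and the Bcl2 window 36. Over 32851 windows of the same length the median is 6, and 9.59%, 21.7% and 2.58% of them hold at least as many as Mcl1, Bid and Bcl2. The observed number of CG was 1.01, 0.73 and 1.03 times the number that the C and G content alone would give. RefSeq windows were used for 8 of the 9 members, 13 in all. Member windows on chromosome 18, where Pmaip1 lies, were left out. Of the 13, 10 had a ratio of at least 0.6 with a GC content of at least 50%, as did 31.0% of all windows. CG-rich starts were therefore shared by members whose groups overlapped and by members whose groups did not, and the letters alone say nothing of methylation.

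Levels of different genes were compared as TPM, which divides counts by the length of the gene's exons. Mcl1 was the most abundant member, at a mean of 281 TPM over the 6 lesions (range 193 to 568), followed by Bak1 at 100.3 TPM (range 83.3 to 132) and Bcl2l1 at 58.2 TPM (range 44.7 to 73.7). The ranges of Mcl1, Bak1 and Bcl2l1 did not overlap. Bax followed at 55.4 TPM and Pmaip1 at 38.0 TPM. Bid lay at 21.6 TPM, Bcl2l11 at 20.9 TPM, Bcl2 at 11.2 TPM and Bbc3 at 5.19 TPM. From Bcl2l1 downwards, each gene's range over lesions overlapped that of the next. Among the 3 pro-survival members, Mcl1 and Bcl2l1 were thus well above Bcl2.

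Mcl1 made up 46.0%, 60.5% and 43.9% of the summed TPM of the 9 genes in WT replicates 1, 2 and 3 and 38.9%, 41.6% and 43.1% in KO replicates 1, 2 and 3. Pmaip1 made up 9.61%, 6.92% and 7.73% in WT and 3.32%, 2.96% and 7.11% in KO lesions. The share of Mcl1 was lower in each KO than in each WT lesion, while the Pmaip1 share of KO replicate 3 lay within the WT range. The summed TPM itself was 547, 938 and 519 in WT and 533, 464 and 548 in KO lesions, so WT replicate 2 alone stood above the others.

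**Figure D1:**
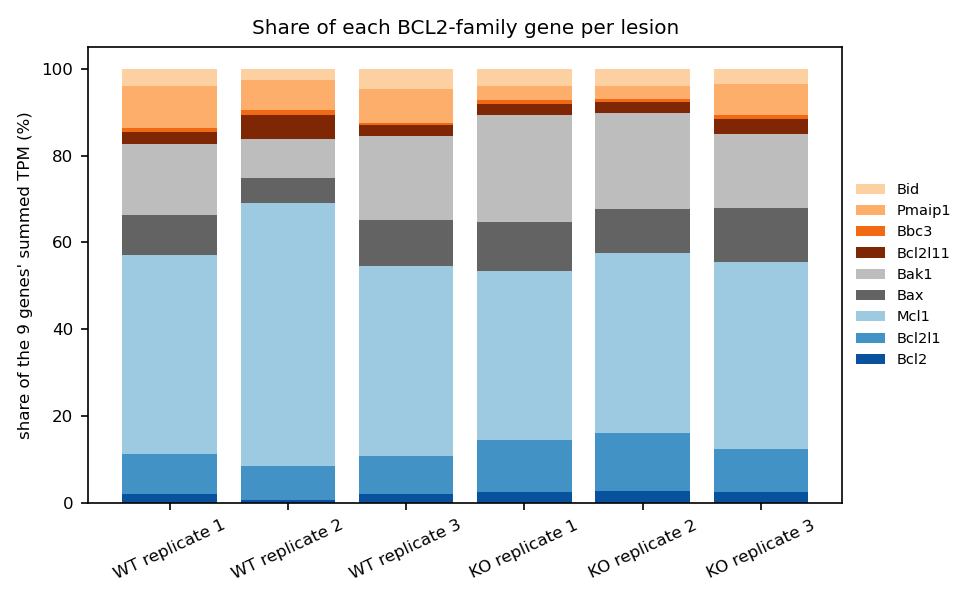
Share of each of the 9 BCL2-family genes in their summed TPM (%), 1 stacked bar per lesion, with pro-survival genes in blue, effectors in grey and BH3-only genes in orange. Mcl1 takes 38.9% to 60.5% of every bar, and the Pmaip1 band is narrowest in KO replicates 1 and 2, at 3.32% and 2.96%.

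The question of the comparison was how the transcripts of cell survival and cell death differ between lesions grown from Dnmt3a-deficient and from control endometrium. Of the 9 members, 7 had a lower and 2 a higher fitted level in KO lesions, and 3 lay lower in every KO than in every WT lesion: Mcl1 and the BH3-only genes Pmaip1 and Bid. No member passed an adjusted p of 0.05 in the quasi-likelihood test of edgeR (Benjamini-Hochberg adjustment over all tested genes), where 1 of 18177 genes (0.0055%) did. At an unadjusted p under 0.05, 2 of 9 members were lower (Pmaip1 and Bid) and 0 of 9 higher, against 8.16% and 6.55% of all tested genes. WT lay above KO without overlap for 3 of 9 members and for 8.74% of all genes, and KO above WT for 0 of 9 members and for 10.7% of all genes. DESeq2's Wald test gave an adjusted p under 0.05 to 5.47% of the genes it adjusted and to 0 of 9 members. Before adjustment, 3 of 9 members were under 0.05, as were 3793 of 29812 genes. The median log2 fold change (KO over WT) was -0.12 over the 3 pro-survival genes and -0.01 over the 2 effectors. It was -0.93 over the 4 BH3-only members, all 4 of which were negative. Without WT replicate 2 the medians were 0.03, -0.03 and -0.31, again with all 4 BH3-only members negative. The effector median turned to 0.09 without KO replicate 2 and to 0.02 when WT replicate 3 was left out. Over all genes tested the median was 0.01, and 0.04 without WT replicate 2. Bad, Bik and Bmf, BH3-only genes outside the members, had positive log2 fold changes of 0.32, 0.44 and 0.29. The study's methods describe 1 fragment of a donor placed in a recipient, but the labels describe another procedure and tie no library to an animal, so p-values measure the spread between these lesions only.

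**Figure D2:**
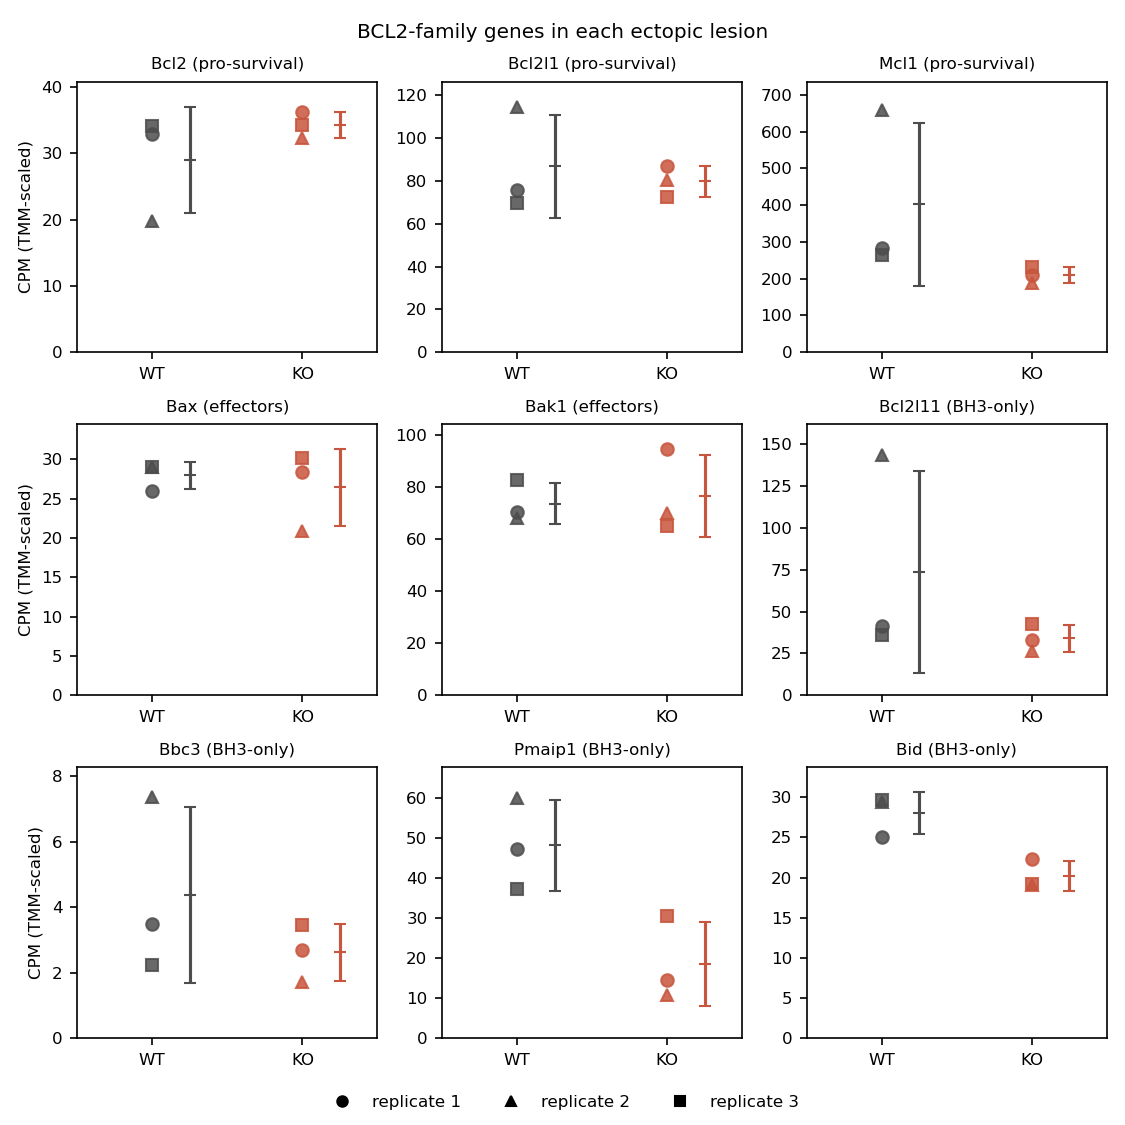
TMM-scaled CPM of the 9 BCL2-family genes in each of the 6 lesions (points, 3 WT in grey and 3 KO in red, marker shape by replicate number), with the mean and SD of each group (n = 3) beside the points and every axis starting at 0. Mcl1, Pmaip1 and Bid show no overlap between groups, and WT replicate 2 lies far from the other WT lesions in Mcl1, Bcl2l11, Bbc3 and Bcl2.

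Bcl2 (ENSMUSG00000057329.8), the founding inhibitor of mitochondrial apoptosis, lay at 32.9, 19.8 and 34.2 CPM in WT replicates 1, 2 and 3 and at 36.2, 32.3 and 34.2 CPM in KO replicates 1, 2 and 3. The KO lesions lay close to WT replicates 1 and 3, and only WT replicate 2 was set apart, below all others. WT lesions averaged 29.0 ± 7.98 CPM (SD, n = 3) and KO lesions 34.2 ± 1.95 CPM (SD, n = 3). KO over WT, the log2 fold change was 0.24 ± 0.23 (SE), with a 95% interval from -0.32 to 0.81 (edgeR adjusted p = 0.618). Without WT replicate 2 it was 0.03.

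Bcl2l1 (ENSMUSG00000007659.19), which encodes BCL-XL, lay at 76.0, 114 and 69.8 CPM in WT and at 86.9, 80.3 and 72.5 CPM in KO lesions. WT replicate 2 was the highest of the 6, and the other lesions lay close together. Its fitted log2 difference was -0.12 ± 0.22 (SE), with a 95% interval from -0.65 to 0.41 (edgeR adjusted p = 0.802), and it turned to 0.13 without WT replicate 2.

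Mcl1 (ENSMUSG00000038612.17), a short-lived pro-survival protein that many cells need, lay at 282, 658 and 265 CPM in WT and at 211, 187 and 231 CPM in KO lesions. The groups did not overlap (two-sided exact permutation of the lesions, p = 0.1, which is the smallest value that 3 against 3 can give), with WT replicate 2 at 2.40 times the mean of the other WT lesions. In the fit over all lesions, Mcl1 had a log2 fold change of -0.94 ± 0.39 (SE), with a 95% interval from -1.88 to 0.01 (edgeR adjusted p = 0.341), just short of an unadjusted p of 0.05. Without WT replicate 2 it was -0.38 (adjusted p = 0.344), just past that mark. The order of the groups therefore did not rest on WT replicate 2, while much of the size did.

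The fitted differences of the effectors were small. Bax (ENSMUSG00000003873.12) lay at 26.0, 29.0 and 29.0 CPM in WT and at 28.3, 20.9 and 30.2 CPM in KO lesions, so that only KO replicate 2 was low. Its log2 fold change was -0.08 ± 0.18 (SE), with a 95% interval from -0.51 to 0.35 (edgeR adjusted p = 0.839), and it was 0.07 without KO replicate 2. Bak1 (ENSMUSG00000057789.15), whose protein sits in the mitochondrial membrane before any death signal, lay at 70.3, 67.9 and 82.5 CPM in WT and at 94.6, 70.0 and 65.0 CPM in KO lesions. KO replicates held both the highest and the lowest value. Its log2 fold change was 0.06 ± 0.18 (SE), with a 95% interval from -0.39 to 0.50 (edgeR adjusted p = 0.894), and it was -0.12 without KO replicate 1. Both intervals include 0 and leave room for a change in either direction.

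Of the BH3-only genes, Pmaip1 (ENSMUSG00000024521.9) had the largest fitted difference of the 9 members. It lay at 47.2, 60.1 and 37.4 CPM in WT and at 14.4, 10.6 and 30.4 CPM in KO lesions. All 3 WT lesions were above all 3 KO lesions (two-sided exact permutation, p = 0.1), and KO replicate 3 came closer to the WT lesions than the other KO lesions did. WT lesions averaged 48.2 ± 11.4 CPM (SD, n = 3) and KO lesions 18.5 ± 10.5 CPM (SD, n = 3). Pmaip1 had a fitted level 0.384 times that of WT, a log2 fold change of -1.38 ± 0.43 (SE), with a 95% interval from -2.43 to -0.33 (edgeR adjusted p = 0.327). It was -1.94 without KO replicate 3 (adjusted p = 0.112). Without WT replicate 2 (-1.19) or without KO replicate 1 (-1.23) it no longer passed an unadjusted p of 0.05.

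Bid (ENSMUSG00000004446.13), which links death receptors to the mitochondrion once caspase-8 has cleaved its protein, lay at 25.1, 29.4 and 29.7 CPM in WT and at 22.3, 19.1 and 19.2 CPM in KO lesions. The 3 KO values lay below the 3 WT values (two-sided exact permutation, p = 0.1), and no lesion was far from its group. WT lesions averaged 28.1 ± 2.58 CPM (SD, n = 3) and KO lesions 20.2 ± 1.84 CPM (SD, n = 3). Its fitted level was 0.720 times that of WT, a log2 fold change of -0.47 ± 0.14 (SE), with a 95% interval from -0.82 to -0.13 (edgeR adjusted p = 0.321). It was -0.44 without WT replicate 2, and it missed an unadjusted p of 0.05 only without KO replicate 2 (-0.43) among the lesions left out. Exons of Bid share 628 bases with Bcl2l13 on the other strand, and the strand setting of the counting is not given in the sources used here, so reads of these genes cannot be told apart there.

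Bcl2l11 (ENSMUSG00000027381.18), which encodes BIM, lay at 41.5, 143 and 35.7 CPM in WT and at 33.2, 26.5 and 42.4 CPM in KO lesions. WT replicate 2 was at 3.71 times the mean of the other WT lesions, and KO replicate 3 was above WT replicates 1 and 3. The fitted log2 difference was -1.11 ± 0.58 (SE), with a 95% interval from -2.52 to 0.30 (edgeR adjusted p = 0.390), and it was -0.18 without WT replicate 2. Bbc3 (ENSMUSG00000002083.14) was the weakest member, at 3.50, 7.38 and 2.22 CPM in WT and at 2.68, 1.71 and 3.46 CPM in KO lesions, which is 86 to 328 counts. Its log2 fold change was -0.74 ± 0.52 (SE), with a 95% interval from -2.01 to 0.53 (edgeR adjusted p = 0.501), and -0.13 without WT replicate 2. For both genes the WT lesions other than replicate 2 lay among the KO lesions or just above them.

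**Figure D3:**
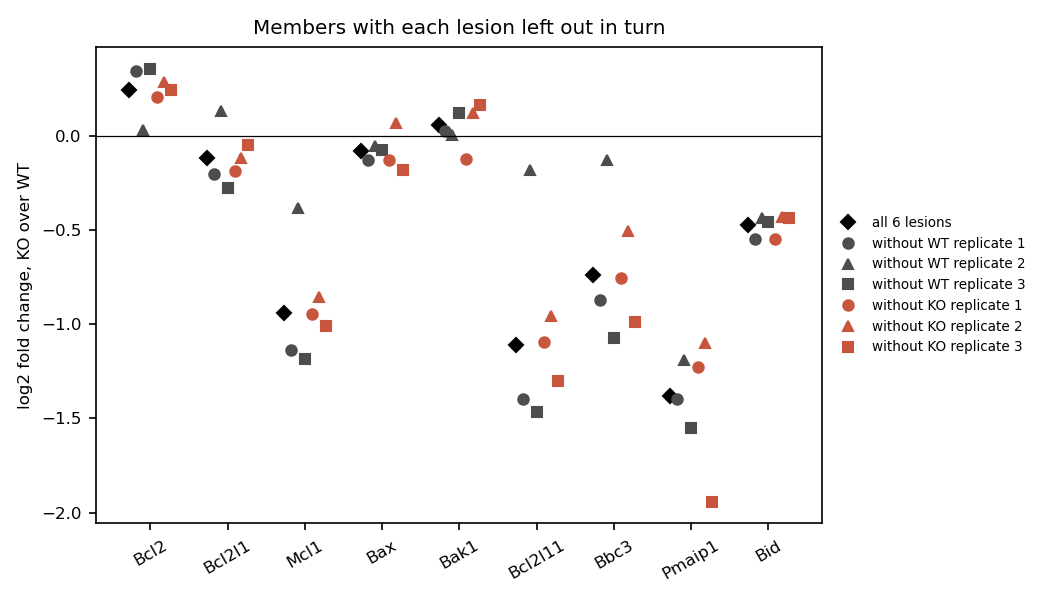
Log2 fold change (KO over WT) of each of the 9 genes from edgeR with all 6 lesions (black diamond) and after leaving out 1 lesion at a time (grey for WT, red for KO, marker shape by replicate number). The points of Bid stay between -0.55 and -0.43 and those of Pmaip1 between -1.94 and -1.10, while leaving out WT replicate 2 moves Bcl2l11 from -1.11 to -0.18.

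Without WT replicate 2, 398 of 18923 genes (2.1%) passed an adjusted p of 0.05 and none of the 9 members did. At an unadjusted p under 0.05, 2 of 9 (Mcl1 and Bid) were lower, against 9.64% of all genes. The WT lesions left in that fit, replicates 1 and 3, are those with skeletal muscle transcripts, at 26552 and 27452 CPM. The part of muscle in its calls was not tested. The neutrophil list, with a negative fitted change for 9 of 9 genes, reached 10139 CPM in WT replicate 2. With that lesion set aside, not all 9 genes were higher in WT than in KO lesions. Mcl1, Bcl2l11 and Bbc3 were also highest in WT replicate 2, as were the macrophage, T cell and B and plasma cell lists. Neutrophils depend on MCL1 for survival, which is background and not a result of these libraries. The part of these cell type lists in the members' differences was not tested beyond leaving WT replicate 2 out.

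Pro-survival and pro-death members were set against each other within each lesion as ratios of TPM, given as a description. The ratio of Bcl2 to Bax was 0.218, 0.117 and 0.203 in WT and 0.220, 0.266 and 0.195 in KO lesions, which overlap. The ratio of Mcl1 to Bax was 5.01, 10.5 and 4.22 in WT and 3.44, 4.13 and 3.53 in KO lesions, so that the lowest WT lesion and the highest KO lesion nearly met. The ratio of Mcl1 to Bcl2l11, a pair whose levels were both highest in WT replicate 2, was 16.0, 10.8 and 17.4 in WT and 15.0, 16.6 and 12.8 in KO lesions, and the difference of the mean log2 ratios was 0.03. The sum of the 3 pro-survival genes over the sum of the 6 pro-death genes was 1.34, 2.23 and 1.20 in WT and 1.14, 1.36 and 1.25 in KO lesions. The difference of the mean log2 ratios (KO minus WT) was -0.30, against -0.02 without WT replicate 2, and the KO lesions lay close to WT replicates 1 and 3. Against the BH3-only members alone, the pro-survival sum was 3.30, 4.25 and 3.51 times as high in WT lesions. In KO lesions it was 4.99, 5.66 and 3.71 times as high. Here KO replicates 1 and 2 were above all WT lesions and KO replicate 3 was not. With CPM in place of TPM this ratio was 3.33, 3.29 and 3.52 in WT and 4.60, 5.17 and 3.54 in KO lesions. On that scale KO replicate 3 lay just above the WT lesions.

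**Figure D4:**
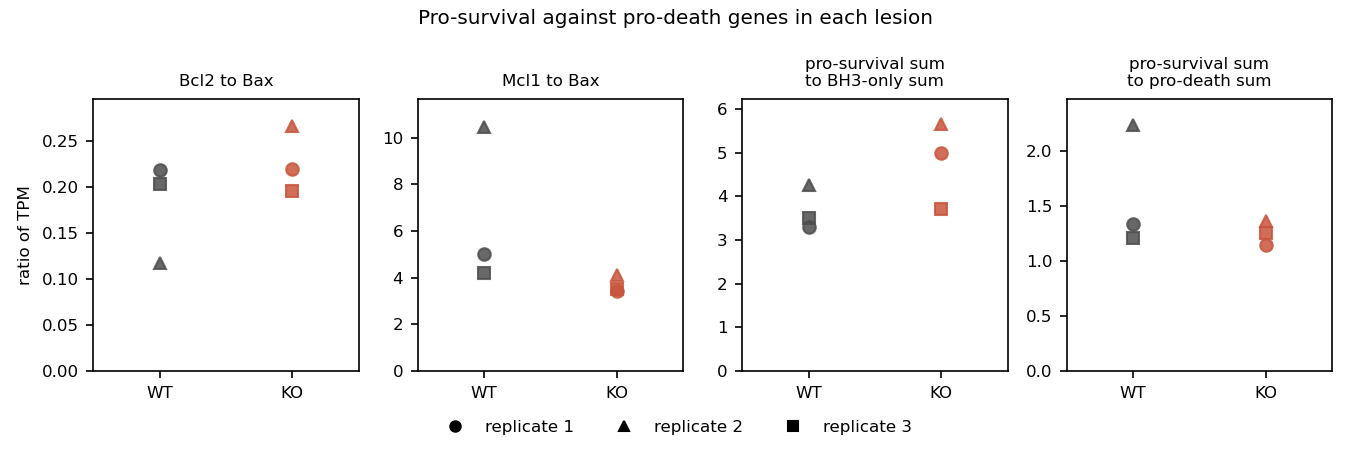
Ratios of TPM between pro-survival and pro-death genes in each lesion (points, 3 WT in grey and 3 KO in red, marker shape by replicate number, every axis starting at 0). The summed pro-survival to pro-death ratio lies between 1.14 and 1.36 in all lesions but WT replicate 2, at 2.23.

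Over the 6 lesions, members moved together in part. Mcl1 and Bcl2l11 had a Pearson correlation of 0.98 (log2 CPM), Mcl1 and Bbc3 of 0.90 and Pmaip1 and Bid of 0.73, while Bcl2 ran against Mcl1, at -0.93. With 6 points of which WT replicate 2 is one extreme, these are descriptions. The genes whose pattern was most like that of Mcl1 were Akap8l, Cyth1 and Upp1, each at a correlation of 0.998, and Upp1 was at 210 CPM in WT replicate 2 and at most 13.8 CPM elsewhere. For Bcl2 they were Gm16061 (0.987), Zfp938 (0.985) and Farp1 (0.984), all lowest in WT replicate 2. For Bax they were Gm8741 (0.998), Fyn (0.996) and Coro1c (0.990), all lowest in KO replicate 2.

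Other BCL2-family genes were read from a list of the family. Of 5 other pro-survival genes, 2 were lower at an unadjusted p under 0.05 and none higher, against 8.16% and 6.55% of all genes. Bcl2a1a, a copy of the A1 gene of blood cells, lay at 2.63, 7.09 and 3.01 CPM in WT and at 1.60, 1.55 and 1.60 CPM in KO lesions. Its fitted log2 difference was -1.42 ± 0.44 (SE, edgeR adjusted p = 0.327), and -0.83 without WT replicate 2. It missed an unadjusted p of 0.05 without KO replicate 1 or without KO replicate 2. Its near-identical copies are Bcl2a1d (-1.11, adjusted p = 0.332, and -0.70 without WT replicate 2) and Bcl2a1b (-0.49, adjusted p = 0.595, and 0.03 without WT replicate 2). Reads can match more than 1 copy, so the split between them is uncertain. Bcl2a1d passed an unadjusted p of 0.05 in only 2 of the 6 fits with a lesion left out. Bcl2l2, which encodes BCL-W, had a log2 fold change of 0.19 (adjusted p = 0.619). Among 5 other pro-death genes, 4 were tested. Bok, Bad, Bik and Bmf had log2 fold changes of 0.36, 0.32, 0.44 and 0.29, opposite in sign to the 4 BH3-only members. Bad, Bik and Bmf encode BH3-only proteins too, so the tested BH3-only genes lay on both sides of 0. None of Bok, Bad, Bik and Bmf reached an unadjusted p of 0.05. Of these genes, 3 were higher in every KO than in every WT lesion, as were 10.7% of all genes. These 4 were named after their values were seen. Hrk, also a BH3-only gene, had too few counts to be tested, at 0 in every WT lesion and 6, 86 and 0 counts in KO replicates 1, 2 and 3.

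Most caspases had small fitted differences. Of 9 caspase genes, 1 was lower at an unadjusted p under 0.05 (the background is 8.16%) and none higher. The initiators Casp8 and Casp9 had log2 fold changes of -0.14 (edgeR adjusted p = 0.741) and 0.05 (adjusted p = 0.923), and without WT replicate 2 that of Casp9 was 0.29 and that of Casp8 -0.04. Casp6, an executioner, lay at 29.8, 32.8 and 34.1 CPM in WT and at 39.5, 39.6 and 36.2 CPM in KO lesions, higher in each KO lesion, for a fitted log2 difference of 0.25 (adjusted p = 0.368). Casp6 was singled out after its values were seen.

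Casp4, the mouse caspase-11 of the inflammatory group, which drives pyroptosis rather than apoptosis, lay at 16.5, 110 and 30.8 CPM in WT and at 12.1, 9.53 and 12.5 CPM in KO lesions. All WT lesions were above all KO lesions, and WT replicate 2 was the highest. Casp4 had a log2 fold change of -2.20 ± 0.71 (SE, edgeR adjusted p = 0.328), which was -1.05 without WT replicate 2 (adjusted p = 0.234). Its unadjusted p missed 0.05 when any one KO lesion was left out, at 0.0567 to 0.0666. With DESeq2 its adjusted p was 0.0283 (Wald test), and the other 12 alternatives gave none under 0.05.

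**Figure D5:**
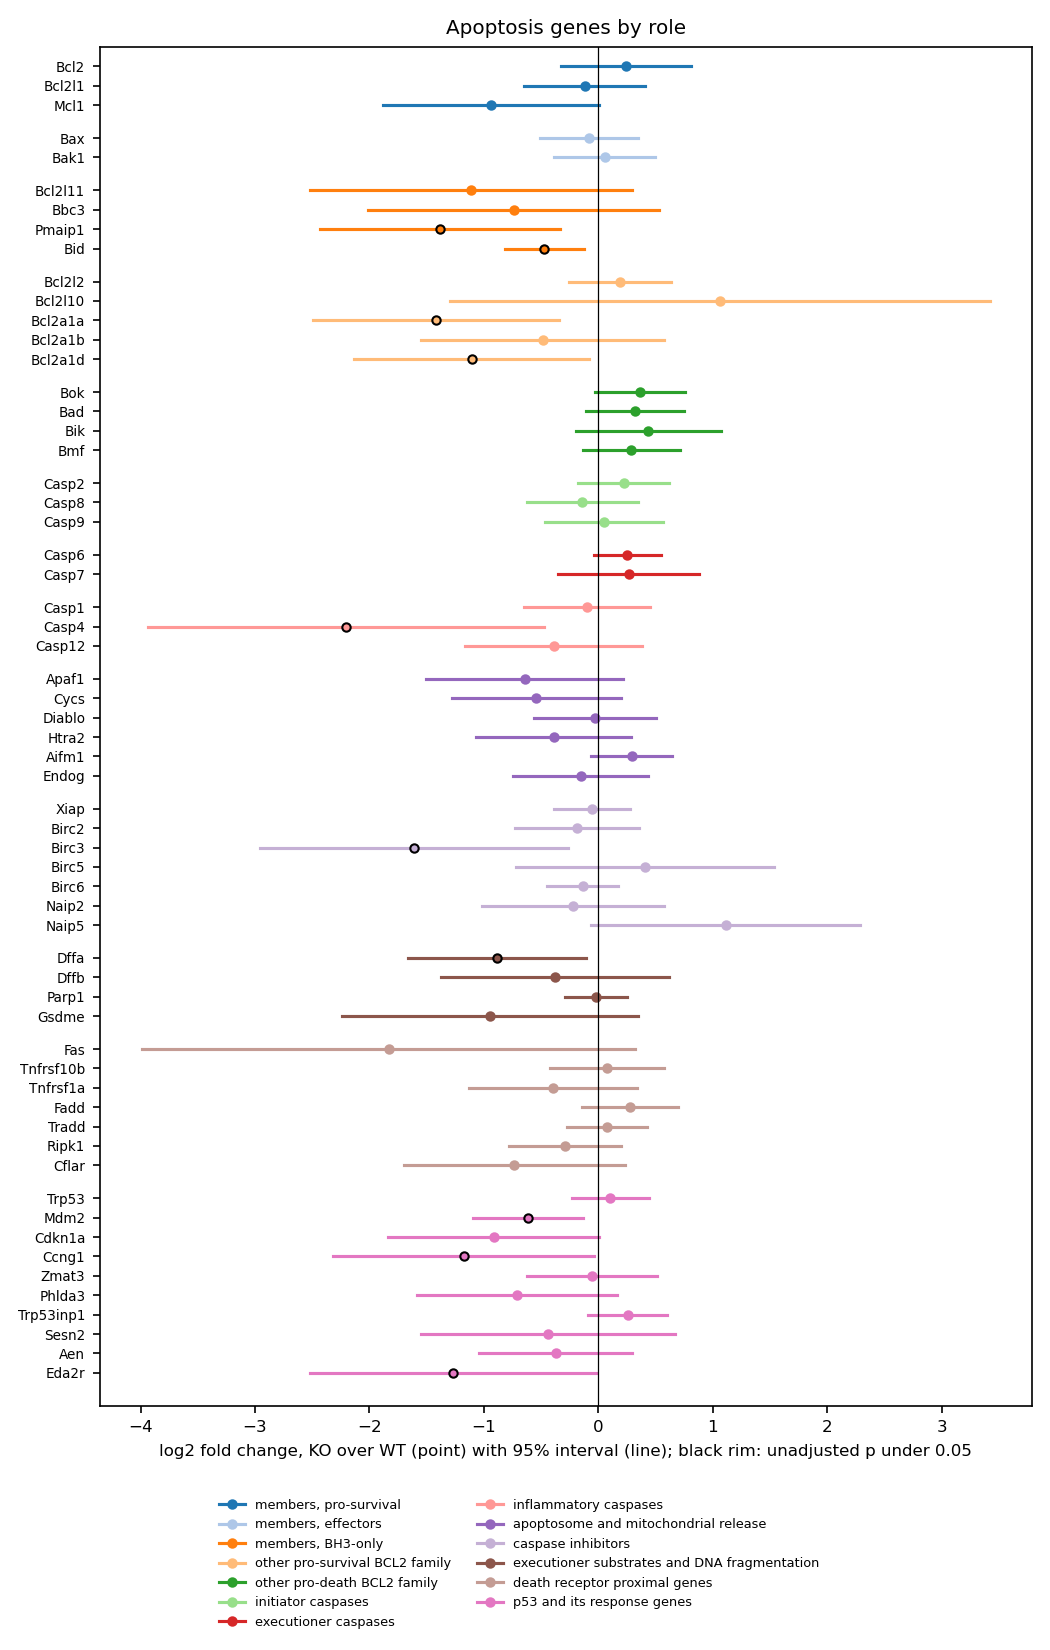
Log2 fold change (KO over WT) with its 95% interval from edgeR for the members and other apoptosis genes, coloured by role, where a black rim marks an unadjusted p under 0.05. The 4 BH3-only members lie left of 0, the 4 other pro-death genes right of 0, and Casp4 at -2.20 is farthest to the left.

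Downstream of the mitochondrion, none of the 6 apoptosome and mitochondrial release genes reached an unadjusted p of 0.05 with all lesions. Apaf1, the scaffold of the apoptosome, lay at 31.3, 75.8 and 37.6 CPM in WT and at 31.5, 26.7 and 34.4 CPM in KO lesions, for a fitted log2 difference of -0.64 (edgeR adjusted p = 0.406), and of -0.16 without WT replicate 2. Cycs, which encodes cytochrome c, lay at 89.1, 49.7 and 116 CPM in WT and at 57.8, 60.0 and 57.4 CPM in KO lesions (-0.54, adjusted p = 0.413). Without WT replicate 2 its log2 fold change was -0.81 (adjusted p = 0.0861), past an unadjusted p of 0.05. WT replicate 2 was thus the highest lesion for Apaf1 and the lowest for Cycs. Cycs was highest in WT replicates 1 and 3, the lesions with skeletal muscle transcripts. The part of that tissue in its difference was not tested. Of 7 caspase inhibitors, 1 was lower at an unadjusted p under 0.05 (8.16% of all genes) and none higher. That was Birc3, which encodes cIAP2, an NF-kappa B target, at 49.4, 204 and 65.1 CPM in WT and at 35.5, 31.7 and 37.2 CPM in KO lesions. Its log2 fold change was -1.61 ± 0.55 (SE, edgeR adjusted p = 0.328), and -0.72 without WT replicate 2. It missed an unadjusted p of 0.05 when any one KO lesion was left out. Without KO replicate 3, 0 of the 7 inhibitors were lower at that p and 1 was higher. Of all 19048 genes in that fit, 2366 were lower and 2185 higher. Xiap, a direct inhibitor of caspases, had a log2 fold change of -0.06 (adjusted p = 0.857).

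Among 4 executioner substrates and DNA fragmentation genes, Dffa, the inhibitor of the apoptotic nuclease, lay at 41.6, 19.8 and 34.0 CPM in WT and at 21.4, 13.6 and 16.7 CPM in KO lesions. Its groups overlapped, and its log2 fold change was -0.88 ± 0.32 (SE, edgeR adjusted p = 0.328). With a lesion left out, it passed an unadjusted p of 0.05 only without WT replicate 2 (-1.13) and without KO replicate 1 (-1.06). Dffa too was highest in WT replicates 1 and 3, the lesions with skeletal muscle transcripts, and the part of that tissue was not tested. Of 8 death receptor genes, 7 were tested and none reached an unadjusted p of 0.05, while Fasl had too few counts. The receptor gene Fas lay at 12.4, 82.1 and 11.6 CPM in WT and at 6.65, 7.45 and 15.7 CPM in KO lesions. Its log2 fold change was -1.83 (edgeR adjusted p = 0.370), and -0.27 without WT replicate 2. Fas was lower at an unadjusted p under 0.05 without WT replicate 1 (-2.24) or WT replicate 3 (-2.27), fits that keep WT replicate 2. In the fit without WT replicate 3, Fasl was tested and lower too (-2.16). Cflar, which encodes the caspase-8 inhibitor FLIP, was at 133, 337 and 154 CPM in WT and at 103, 116 and 157 CPM in KO lesions (-0.73, adjusted p = 0.403), again highest in WT replicate 2, and the log2 fold change was -0.20 without that lesion.

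Since Pmaip1 and Bbc3 are targets of p53, the list of p53 and its response genes bears on them. Of its 10 genes, 8 had a negative fitted change, 3 were lower at an unadjusted p under 0.05 (8.16% of all genes) and none higher (6.55%), with a median log2 fold change of -0.53 against 0.01 over all genes. With a lesion left out, 0 to 4 of the 10 were lower at that p, 0 without KO replicate 1 or KO replicate 2 and 4 without WT replicate 2 or KO replicate 3. Trp53 itself had a log2 fold change of 0.10 (edgeR adjusted p = 0.720). Mdm2, the ubiquitin ligase of p53, lay at 54.7, 85.4 and 60.4 CPM in WT and at 42.3, 40.8 and 48.1 CPM in KO lesions, each KO lesion below each WT lesion (-0.61, adjusted p = 0.328). Ccng1 lay at 566, 252 and 863 CPM in WT and at 216, 204 and 324 CPM in KO lesions (-1.18, adjusted p = 0.334). The death receptor gene Eda2r lay at 45.8, 13.9 and 28.9 CPM in WT and at 9.28, 8.78 and 18.6 CPM in KO lesions (-1.27, adjusted p = 0.336). Cdkn1a, the cell cycle inhibitor p21, lay at 155, 201 and 123 CPM in WT and at 72.7, 51.5 and 130 CPM in KO lesions (-0.92, adjusted p = 0.341). For Cdkn1a, as for Pmaip1, KO replicate 3 was the highest KO lesion, and for Ccng1 and Eda2r WT replicate 2 was the lowest WT lesion. Ccng1 and Eda2r were thus highest in WT replicates 1 and 3, the lesions with skeletal muscle transcripts, and the part of that tissue in their difference was not tested. With a lesion left out, Ccng1 passed an unadjusted p of 0.05 only without WT replicate 2 (-1.53) and Eda2r only without WT replicate 2 (-1.61) or KO replicate 3 (-1.71), while Mdm2 missed it without KO replicate 1 (-0.59) or KO replicate 2 (-0.56).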

How the data were processed

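RNA from 3 WT and 3 KO lesions was sequenced with a stranded mRNA kit. The authors deposited raw counts of reads per gene, made with Trimmomatic and featureCounts on GRCm39 according to the submitters' processing notes, whereas the study's methods name GRCm38 on the Galaxy platform. The aligner, the annotation release and the strand setting are not given in the sources used here, so no coordinates are given for the counted gene models. Symbols and exon lengths came from GENCODE M21, which held 51948 of the 56884 identifiers, and the others carried 3.04% to 3.56% of the counts. Exons shared with other genes were found for Bcl2 (558 bases, D630008O14Rik), Bax (192 bases, Gm45808), Bak1 (Ggnbp1) and Bid. Promoter windows and their coordinates came from RefSeq on GRCm38.p6.

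From the counts, edgeR 4.0.16 in R 4.3.3 was run with filterByExpr, TMM scaling, genotype as the only term and Benjamini-Hochberg adjustment over 18177 genes. CPM used the TMM factors and log2 CPM a prior count of 2. TPM was computed from the counts and exon lengths. Single genes were compared by exact two-sided permutation. Alternatives were DESeq2 1.42.0 (its size factors and its Wald test), upper quartile scaling, limma 3.58.1 voom with quality weights, other count filters, the replicate number as a term, and each lesion left out. The members and lists were chosen with earlier results of these data known. Named genes are all members, Dnmt3a, up to 4 genes per list with an unadjusted p under 0.05, genes fixed by name (Bcl2a1b, Bcl2l2, Casp8, Casp9, Apaf1, Cycs, Xiap, Cflar, Trp53 and Cdkn1a) and the 3 genes most like Bcl2, Mcl1 and Bax. Foxa2, Casp6, Fas, Fasl, Hrk, Bok, Bad, Bik and Bmf were named beyond this rule, after their values were seen. A further gene of the lists is not reported here. Counts come without molecular identifiers, so the tests rest on the spread between lesions and not on counting error.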

Additional observations from a re-analysis of the deposited data

How the results depend on the processing

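None of the 9 members passed an adjusted p of 0.05 in edgeR's quasi-likelihood test or in any of the 13 alternatives, and the lowest adjusted p of a member was 0.0587, for Pmaip1 with DESeq2's Wald test. Pmaip1 and Bid kept their direction in all 13 alternatives and passed an unadjusted p of 0.05 in 11 each, with log2 fold changes from -1.94 to -1.10 and from -0.55 to -0.38. Mcl1 stayed between -1.19 and -0.38 and passed in 6. Signs turned for Bcl2l1 (0.14 with voom, and -0.28 to 0.13 over the lesions left out, the highest without WT replicate 2), for Bax (0.013 with upper quartile scaling, and -0.18 to 0.068 over the lesions left out, the highest without KO replicate 2) and for Bak1 (-0.12 to 0.16 over the lesions left out, the lowest without KO replicate 1). The number of members past an unadjusted p of 0.05, 2 with all lesions, was 1 to 4 with each lesion left out. For the caspases the number was 1, and it was 2 with upper quartile scaling, 4 with voom and 0 to 1 with each lesion left out. Over all genes the number was 2674, and it was 5478 with voom and 1297 to 4551 with each lesion left out. The log2 ratio of pro-survival to pro-death members was -0.30 and ranged from -0.47 to -0.02 with each lesion left out, and it was -0.09 with CPM in place of TPM. Upper quartile scaling moved the median of all genes from 0.01 to 0.11 and the genes past an unadjusted p of 0.05 from 1190 higher and 1484 lower to 1945 higher and 1179 lower. DESeq2's Wald test gave 1083 genes an adjusted p under 0.05 and edgeR 1. The cause of these shifts was not tested.

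The labels do not say whether replicate numbers pair the lesions. Deviations of same-numbered lesions correlated at 0.032, -0.152 and -0.201. These values cannot exclude a pairing, since the deviations also hold the differences in tissue. With the replicate number as a block, 1 member (Pmaip1), 0 caspases and 1400 genes passed an unadjusted p of 0.05. With 3 lesions a group, a biological coefficient of variation of 44.2% and mixed tissue, small changes of members with wide intervals, such as Bbc3 at 86 to 328 counts, could not be told from the spread between lesions.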
